A study of Mus musculus with 76 samples.

Results

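Cytosolic ribosomal protein genes encode the proteins of the large (Rpl) and small (Rps) subunits of the cytoplasmic ribosome. The members were the protein-coding genes of the count table whose symbol starts with Rpl or Rps and a digit, together with Rplp0, Rplp1, Rplp2 and Rpsa. The S6 kinases, Rps19bp1 and symbols ending in -ps were left out. This gave 82 genes of 14823, of which 49 were Rpl and 33 Rps genes, and all 82 passed the filter on low counts that left 14339 genes for testing.

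The libraries were bulk RNA from mouse embryos of strain C57Bl/6J, taken from the dorsal forebrain on embryonic day 16. The father, the mother, both or neither had received α-cypermethrin, a pyrethroid insecticide, on an intermittent schedule of 28 days before mating, and parents not exposed received vehicle. The embryos came from 12 control libraries with both parents on vehicle (Ctrl), 12 with an exposed father (Paternal_0.3Cyp), 12 with an exposed mother (Maternal_0.3Cyp) and 12 with both parents exposed (Both_0.3Cyp) at the dose labelled 0.3. At the dose labelled 10 there were 10 Paternal_10Cyp, 8 Maternal_10Cyp and 10 Both_10Cyp libraries. The labels give no dose unit and no litter, so embryos of 1 litter may stand as separate samples, and p-values then measure the spread between these libraries only. Both sexes and both labelled batches were present in every group, with 34 libraries in batch 1 and 42 in batch 2.

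Most ribosomal proteins are present as a single copy in each ribosome, and their mRNAs are among the most abundant of a cell. Many of these mRNAs start with a C followed by a run of pyrimidines, the 5′ terminal oligopyrimidine (TOP) motif, through which the mTOR kinase and the protein LARP1 control their translation and stability. In the embryonic cortex, progenitors are known for high ribosomal protein expression, which declines as neurons mature.

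To show what a TOP-type start looks like in these genes, 30 bases around the annotated start (15 before it, 15 from it on) are printed. They belong to some of the members named in the results below. The source is RefSeq promoters of GRCm38.p6, 5′ to 3′ on the gene's strand. Capitals mark the unbroken run of C and T that begins at the start base.

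Rps6: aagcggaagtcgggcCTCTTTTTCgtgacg

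Rpl38: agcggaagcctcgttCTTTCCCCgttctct

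Rps21: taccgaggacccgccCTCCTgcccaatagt

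Rplp2: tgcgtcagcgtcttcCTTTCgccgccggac

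Rps27: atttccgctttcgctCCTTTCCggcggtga

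Rps27rt: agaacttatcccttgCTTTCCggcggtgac

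Rps28: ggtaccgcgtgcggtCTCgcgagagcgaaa

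These windows lie at chr4:86857353-86857382 (Rps6, minus strand), chr11:114668565-114668594 (Rpl38, plus strand), chr2:180257364-180257393 (Rps21, plus strand), chr7:141447636-141447665 (Rplp2, plus strand), chr3:90213634-90213663 (Rps27, minus strand), chr9:114982725-114982754 (Rps27rt, minus strand) and chr17:33824548-33824577 (Rps28, minus strand). Each spans the promoter edge and the first bases of the first exon. Rps28 is shown as a start whose run ends after 3 bases. Apart from it, only starts with a run of 5 or more are shown. Other named members, such as Rplp0 and Rpsa, have no C or T at the annotated start base. Rps21 has a further annotated start, not shown, whose run is 1 base. Rps27 and Rps27rt, whose transcripts share most of their sequence, are shown because reads of one can be counted for the other. RefSeq promoters matched 62 members by symbol. A C at the annotated start base followed by at least 4 C or T, read on the gene's strand, was found in 14 of the 62 (22.6%), in 331 of 11454 other genes of the count table (2.89%) and in 813 of all 27025 genes with a promoter (3.01%). When a C within 5 bases of the annotated start was allowed to open such a run, the counts were 24 of 62 members (38.7%) and 2016 of 11454 other genes (17.6%). A match describes the letters in this window only.

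The smallest library held 17.7 M counts (M, mega), the median 19.2 M and the largest 41.4 M. The 17 libraries above 20 M were the 10 with both parents exposed at dose 10, together with 4 Paternal_10Cyp, 1 Maternal_10Cyp and 2 Maternal_0.3Cyp libraries, and Ctrl had 0. In Ctrl the summed level of 8 neuronal markers was 6880 to 7726 CPM (counts per mega-count of the library) and that of 8 markers of the diencephalon, a neighbouring region, was 24.3 to 187 CPM. No pair of libraries was identical. In a bulk sample, fewer cells of a type and less RNA per cell cannot be told apart.

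In Ctrl the members were abundant and spanned a wide range. Their median level was 479 CPM per kilobase of transcript against 8.72 over all genes tested, and 74 of 82 lay above the 95th percentile of all genes. Per kilobase the highest were Rplp1 at 1103 ± 118 (SD, n = 12), Rplp0 at 1087 ± 138 (SD, n = 12) and Rpl13 at 1006 ± 102 (SD, n = 12), whose intervals overlap. Rplp0, Rplp1 and Rplp2 form the acidic stalk of the large subunit that recruits translation factors. The lowest were Rpl12 at 16.2 ± 2.71 (SD, n = 12), Rps12 at 23.4 ± 4.30 (SD, n = 12) and Rpl5 at 31.1 ± 2.58 (SD, n = 12). RPL5 belongs with RPL11 to the 5S ribonucleoprotein that binds MDM2 when ribosome assembly fails, and RPL12 lies at the base of the stalk. Levels per kilobase depend on the transcript model chosen.

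Many members have near-identical copies, largely processed pseudogenes, elsewhere in the genome. Of the 31-base words of each member's transcript, a median of 63.2% also occurred in a transcript of another annotated gene, and 58 of 82 members shared over 50%. Over 90% was shared by 7 members, among them Rpl10 (92.3%) and Rps12 (90.5%), and their levels are uncertain because counting could split reads between copies. The clearest case was Rps27, which shared 98.7% with Rps27rt. Rps27 was listed in Ctrl at 2.53, 13.9 and 59.1 CPM (lowest, median and highest of 12 libraries), and its SD over Ctrl on the log2 scale, 1.31, was the largest of the members, followed by Rps27rt at 0.48. The smallest SDs were those of Rpl27a (0.08) and Rpl3 (0.09), against a median of 0.16 over the members and 0.18 over all genes tested. The sum of Rps27 and Rps27rt was steadier, at 131 ± 27.1 CPM (SD, n = 12) in Ctrl and 179 ± 20.8 CPM (SD, n = 8) in Maternal_10Cyp. In Both_10Cyp it was 177 ± 19.5 CPM (SD, n = 10).

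The members moved together from embryo to embryo. After group and batch means were removed, 58.6% of their variance lay on 1 component, on which 81 of 82 members had the same sign, while the first component of all genes tested held 11.3%. The exception was Rps27, which also dominated the second component (27.6%). This describes shared variation of genes within the same libraries. Among these was Paternal_0.3Cyp replicate 8, whose mean log2 level of the members against Ctrl was 1.08, with a group mean of 0.22. How much of the shared variance rests on that library was not tested.

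Taken library by library, the members stood a little higher in every exposed group than in Ctrl. The mean log2 level of the 82 members, set to 0 as the Ctrl mean, was -0.27, 0.04 and 0.16 in Ctrl (lowest, median and highest of 12). In Maternal_10Cyp it was 0.18, 0.30 and 0.59, so that all 8 libraries lay above all 12 of Ctrl. The other 5 groups overlapped Ctrl, with medians of 0.13 in Paternal_0.3Cyp, 0.17 in Maternal_0.3Cyp, 0.19 in Both_0.3Cyp, 0.18 in Paternal_10Cyp and 0.24 in Both_10Cyp. As a share of all counts the members made up 3.12 ± 0.31% (SD, n = 12) in Ctrl and 3.82 ± 0.28% (SD, n = 8) in Maternal_10Cyp.

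**Figure D1:**
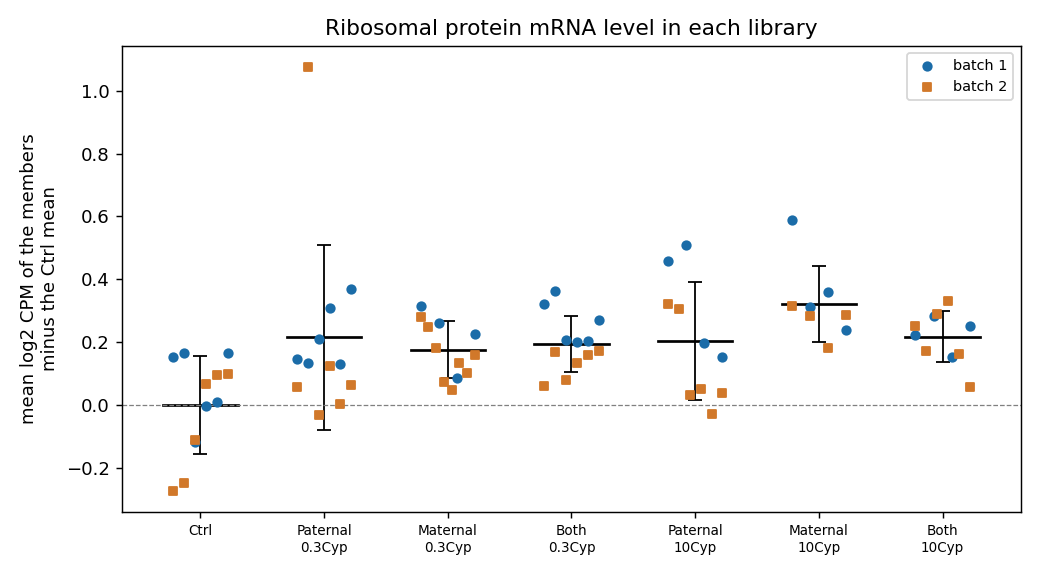
Mean log2 CPM of the 82 ribosomal protein genes in each library, minus the Ctrl mean (y axis), for the 7 groups (x axis). Points are libraries, circles batch 1 and squares batch 2, with group mean and SD as bars. All 8 Maternal_10Cyp libraries sit above the highest Ctrl library, 1 Paternal_0.3Cyp library stands at 1.08, and 4 Ctrl libraries lie below -0.1.

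Some libraries stood apart before any comparison was made. Paternal_0.3Cyp replicate 8 held 6.11% of its counts in the members and lay at 1.08 on the log2 scale, with the next highest library of its group at 0.37. Ctrl replicates 7, 8, 3 and 9 were the lowest of the 76 libraries, at -0.27, -0.25, -0.12 and -0.11. In Paternal_0.3Cyp, replicates 3 and 4 held 21.2 and 81.5 CPM of embryonic globin mRNAs, against at most 1.37 CPM in Ctrl. Replicate 9 of Paternal_0.3Cyp held 499.7 CPM of diencephalon markers.

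With an exposed mother at dose 10, ribosomal protein mRNAs were higher across both subunits. In Maternal_10Cyp 76 of 82 members rose and none fell at an adjusted p under 0.05 (edgeR's quasi-likelihood test on all 76 libraries with batch and sex as terms, Benjamini-Hochberg over 14339 genes), where 20.4% of all genes tested rose and 20.4% fell. No member fell at an unadjusted p under 0.05 or by DESeq2, which also called 76 higher. The median log2 fold change was 0.30 over the members, a 1.23-fold rise, and -0.01 over all genes. Of the small subunit 31 of 33 genes rose and of the large subunit 45 of 49, with medians of 0.30 in each. The 6 that were not called, all named here after their values were seen, were Rps12 (log2 fold change -0.07 ± 0.11 SE), Rpl12 (0.09 ± 0.10), Rpl14 (0.13 ± 0.07), Rpl10a (0.19 ± 0.08), Rpl27a (0.19 ± 0.08) and Rps27 (0.71 ± 0.49). Leaving out any 1 of the 20 libraries compared left between 68 and 78 members called. With 2 surrogate variables in the fit 0 members were called by edgeR (median 0.09, 0.133% of all genes called), and with GC and length offsets 27 rose and 1 fell (median 0.09, 33.7% of all genes called).

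The largest called rises in Maternal_10Cyp were those of 4 short small-subunit genes, Rps28, Rps29, Rps27l and Rps21. Rps28 (chromosome 17, 33819027 to 33824562, minus strand in GENCODE M21, GRCm38) encodes a protein near the mRNA exit site. It was at 71.7, 100.6 and 129 CPM in Ctrl (lowest, median and highest of 12) and at 136, 148 and 195 CPM in Maternal_10Cyp (of 8). The 2 ranges did not overlap, and the log2 fold change was 0.69 ± 0.12 (SE, edgeR adjusted p = 8.67e-05). Rps29 (chromosome 12, 69157722 to 69159186, minus strand), a zinc-binding protein of the small subunit head, was at 65.2, 97.5 and 116 CPM in Ctrl and at 123, 140 and 185 CPM in Maternal_10Cyp. Its ranges did not overlap either, at a log2 fold change of 0.66 ± 0.12 (SE, edgeR adjusted p = 8.67e-05).

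Rps27l, a p53-inducible relative of Rps27, lay at 11.6, 20.3 and 26.8 CPM in Ctrl and at 27.0, 28.7 and 36.9 CPM in Maternal_10Cyp, so the lowest exposed library just cleared the highest control. Its log2 fold change was 0.61 ± 0.11 (SE, edgeR adjusted p = 0.000116). Rps21, needed for late steps of small-subunit maturation, was at 64.4, 104 and 122 CPM in Ctrl and at 136, 149 and 182 CPM in Maternal_10Cyp, again without overlap. Its log2 fold change was 0.59 ± 0.12 (SE, edgeR adjusted p = 0.000188).

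**Figure D2:**
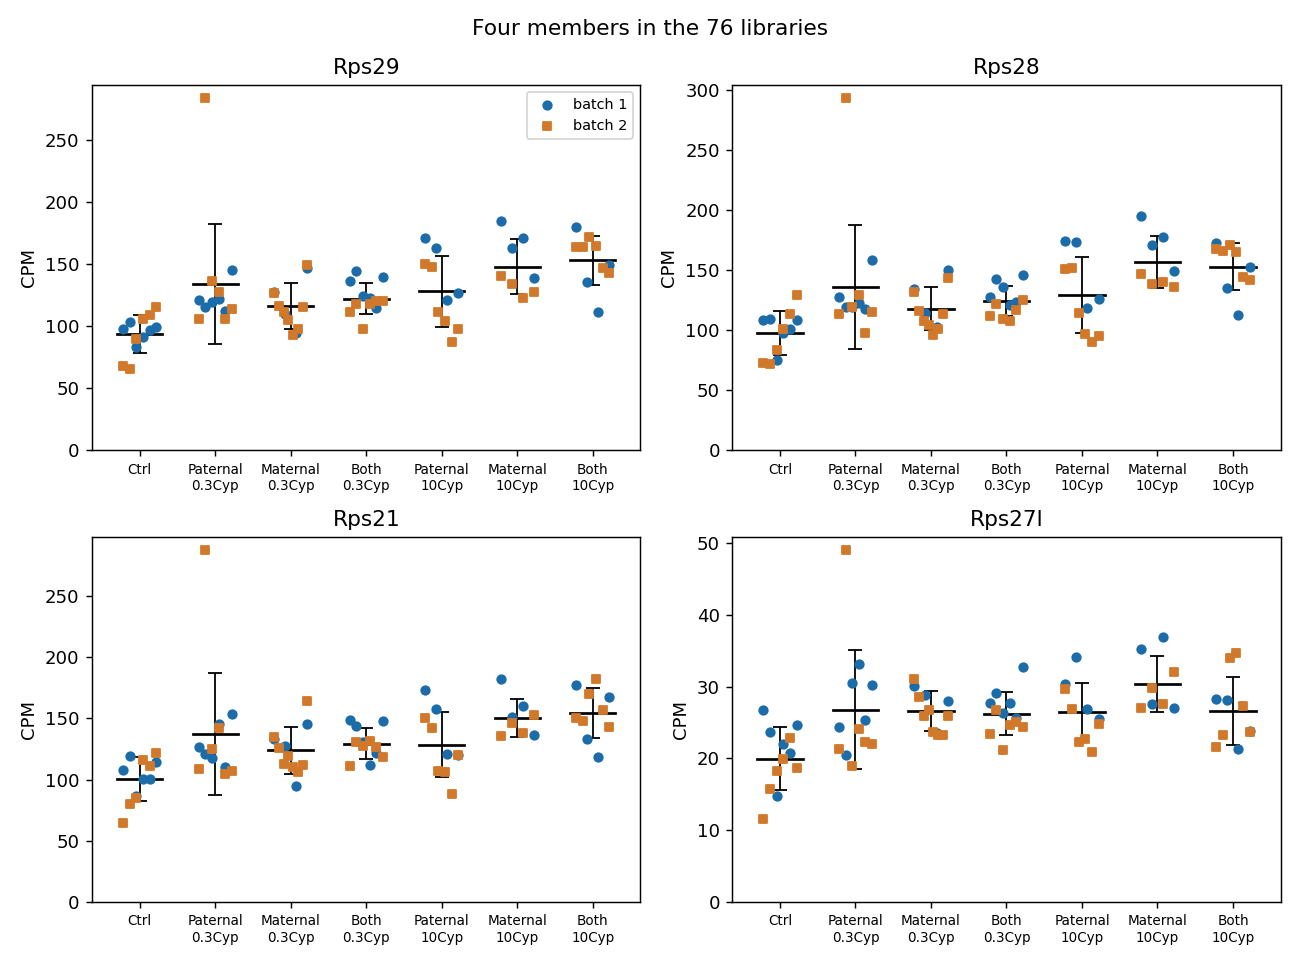
CPM (y axis, from 0) of Rps29, Rps28, Rps21 and Rps27l in the 76 libraries by group (x axis). Points are libraries, circles batch 1 and squares batch 2, with group mean and SD. For each of the 4 genes the Maternal_10Cyp libraries lie above the Ctrl range, and Paternal_0.3Cyp replicate 8 is the highest library, with Rps29 at 283 CPM.

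The stalk proteins and the members with roles outside the ribosome also rose in Maternal_10Cyp. Their log2 fold changes lay on both sides of the members' median of 0.30 (quartiles 0.25 and 0.37). Rplp0 rose from 1477 ± 187 CPM (SD, n = 12) in Ctrl to 1833 ± 134 CPM (SD, n = 8) in Maternal_10Cyp (log2 fold change 0.32 ± 0.07 SE, edgeR adjusted p = 0.000493). Rplp2 rose by 0.34 ± 0.09 and Rplp1 by 0.27 ± 0.09 on the same scale (edgeR adjusted p = 0.00283 and 0.00892). Rpsa, which also serves as the laminin receptor, rose by 0.24 ± 0.07, with 8 of 8 libraries above the Ctrl mean (edgeR adjusted p = 0.00498). Rps6, the substrate of the S6 kinases, went from 454.7, 574 and 629 CPM in Ctrl (lowest, median and highest) to 614.5, 659.5 and 791 CPM in Maternal_10Cyp, which overlap. Its log2 fold change was 0.29 ± 0.08 (SE, edgeR adjusted p = 0.00217). Rps27a, which is made as a fusion with ubiquitin, rose by 0.42 ± 0.10 (edgeR adjusted p = 0.00059).

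Of the MDM2-binding pair, Rpl11 rose by 0.38 ± 0.08 (SE, edgeR adjusted p = 0.000273), and Rpl5 by 0.15 ± 0.06 (edgeR adjusted p = 0.0321). For Rpl5 there was 1 of 8 libraries above the Ctrl maximum against 7 of 8 for Rpl11. Rps19, the gene most often mutated in Diamond-Blackfan anaemia, rose by 0.27 ± 0.08 (edgeR adjusted p = 0.00502). Rpl10, an X-linked gene with rare variants reported in autism, rose by 0.30 ± 0.11 (edgeR adjusted p = 0.0294) from 157 ± 33.9 CPM (SD, n = 12), though no Maternal_10Cyp library exceeded the highest Ctrl library and 92.3% of its 31-base words are shared with another locus.

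Among paralogs, each partner of a pair was called higher in Maternal_10Cyp except Rps27. Rpl22l1 rose by 0.36 ± 0.10 (SE) and Rpl22, an RNA-binding large-subunit protein, by 0.24 ± 0.07 (edgeR adjusted p = 0.00387 and 0.00318). Rpl36al and Rpl36a rose by 0.33 ± 0.09 and 0.30 ± 0.09 (edgeR adjusted p = 0.00245 and 0.00626). Rpl7l1 rose by 0.30 ± 0.06 and Rpl7 by 0.18 ± 0.07 (edgeR adjusted p = 0.000145 and 0.0229). Rps27rt rose by 0.42 ± 0.16 (edgeR adjusted p = 0.0303), with Rps27 at 0.71 ± 0.49 (edgeR adjusted p = 0.239). Rpl3l, Rpl10l, Rpl39l and Rps4l had no entry under those symbols in the count table. Differences between partners were not tested.

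With both parents exposed at dose 10, few genes of any kind were called, and the shortest ribosomal protein genes led. In Both_10Cyp 20 of 82 members rose and none fell, where 2.34% of all genes tested rose, 1.58% fell and 3.91% were called in all (edgeR). No member fell at an unadjusted p under 0.05, and DESeq2 called 27. The median log2 fold change was 0.20 over the members and 0.00 over all genes. Rps29 was at 112, 156 and 180 CPM (lowest, median and highest of 10), with 9 of 10 libraries above the Ctrl maximum (log2 fold change 0.71 ± 0.11 SE, edgeR adjusted p = 0.000123). Rpl38, known for its part in the translation of Hox mRNAs, was at 56.6, 81.6 and 99.1 CPM in Ctrl and at 93.5, 132.5 and 156 CPM in Both_10Cyp, again with 9 of 10 above the Ctrl maximum. It rose by 0.68 ± 0.12 (SE), and Rps28 and Rps21 by 0.66 ± 0.12 and 0.63 ± 0.11 (edgeR adjusted p = 0.000445 for each of the 3). The count depended on single libraries: it was 5 when Both_10Cyp replicate 8 was left out, 7 for replicate 7 and 32 for replicate 3, while leaving out Ctrl replicate 7 gave 8, replicate 8 gave 10 and replicate 6 gave 34. Depth moved with this group (all 10 libraries above 20 M), as did the log2 ratio of the mitochondrial mRNAs mt-Atp6 and mt-Nd4l, at 2.85 ± 0.95 (SD, n = 10) against 4.58 ± 0.16 (SD, n = 12) in Ctrl. Without the 16 libraries of the series that were lowest in that ratio, 7 of them Both_10Cyp and 0 Ctrl, edgeR called 0 members. That fit rests on the few Both_10Cyp libraries left. With a term for libraries above 20 M, which marks all 10 Both_10Cyp and 0 Ctrl libraries, edgeR called 47 members. The part of depth and of the mitochondrial ratio in the result was not tested beyond such fits. Here and below, most counts with libraries left out or a term added have no share of all genes beside them. In those a change in the members cannot be told from one in all genes.

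With an exposed father at dose 10, the rise was spread over both subunits but varied between embryos. In Paternal_10Cyp 48 of 82 members rose and none fell, where 10.7% of all genes tested rose and 10.8% fell (edgeR), and the median log2 fold change was 0.21 against -0.01 over all genes. Rps29 was at 87.0, 124 and 171 CPM (lowest, median and highest of 10), overlapping Ctrl, with 6 of 10 libraries above the Ctrl maximum. Its log2 fold change was 0.47 ± 0.11 (SE, edgeR adjusted p = 0.00499), followed by Rps28 at 0.42 ± 0.12, Rps27l at 0.42 ± 0.11 and Rps21 at 0.37 ± 0.11 (edgeR adjusted p = 0.00994, 0.00706 and 0.016). Replicates 1, 2, 5 and 6 of Paternal_10Cyp stood at 0.46, 0.51, 0.32 and 0.30 in mean member level, above every Ctrl library. Without any 1 of these 4 the count of members called was 23 to 29, and it was 31 without Ctrl replicate 7.

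At dose 0.3 Rps29, Rps28, Rps21 and Rps27l were the largest called rises in each of the 3 comparisons. In Paternal_0.3Cyp 68 of 82 members rose and none fell, where 15.4% of all genes rose and 12.2% fell (edgeR), with a median log2 fold change of 0.24 against 0.01 over all genes. Without Paternal_0.3Cyp replicate 8 the count was 23 and the median 0.12, with 15.8% of all genes called in either direction. Rps29 was at 106, 120 and 283 CPM (lowest, median and highest of 12), with 8 of 12 libraries above the Ctrl maximum, and rose by 0.52 ± 0.11 (SE, edgeR adjusted p = 0.00233). Rps28, Rps21 and Rps27l rose by 0.49 ± 0.11, 0.46 ± 0.11 and 0.43 ± 0.10 (edgeR adjusted p = 0.00301, 0.0032 and 0.00361). Without replicate 8 these 4 genes, in the same order, stood at 0.36, 0.32, 0.30 and 0.30 (edgeR adjusted p = 0.0122, 0.0187, 0.0204 and 0.0222). An edgeR fit of Paternal_0.3Cyp and Ctrl alone, without the other 5 groups, called 0 members and 0% of all genes. Markers moved beside the members here too: 7 of 7 of red blood cells, 5 of 8 of the diencephalon and 4 of 4 of intermediate progenitors rose, and 5 of 8 of neurons fell. Summed levels were 1531 to 3556 CPM against 1370 to 1998 CPM in Ctrl for red blood cells, 33.4 to 499.7 against 24.3 to 187 for the diencephalon, 271 to 958.5 against 236 to 617 for intermediate progenitors and 5673 to 7241 against 6880 to 7726 for neurons. Without the libraries high in embryonic globins, or without those high in diencephalon markers, 56 members were called, and the part of the other markers was not tested.

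In Maternal_0.3Cyp 30 members rose and none fell, where 10.9% of all genes rose and 12.8% fell (edgeR), and the median log2 fold change was 0.18 against 0.01 over all genes. Rps27l led with 23.2, 26.4 and 31.1 CPM (lowest, median and highest of 12), all 12 libraries above the Ctrl mean and 6 above its maximum (log2 fold change 0.44 ± 0.10 SE, edgeR adjusted p = 0.00472). Rps29, Rps21 and Rps28 rose by 0.33 ± 0.11, 0.32 ± 0.11 and 0.30 ± 0.11 (edgeR adjusted p = 0.023, 0.0256 and 0.042). Leaving out Ctrl replicate 7, 8, 3 or 9 gave a count of 9, 10, 12 or 15, and leaving out Maternal_0.3Cyp replicate 1, 5 or 6 gave 18, 14 or 18.

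In Both_0.3Cyp 39 members rose and none fell, where 10.5% of all genes rose and 11.8% fell (edgeR), at a median log2 fold change of 0.19 against 0.00 over all genes. Rps27l and Rps29 rose by 0.40 ± 0.10 and 0.38 ± 0.11 (SE, edgeR adjusted p = 0.00858 and 0.0119), each with 12 of 12 libraries above the Ctrl mean. Rps21 and Rps28 rose by 0.36 ± 0.11 and 0.34 ± 0.11 (edgeR adjusted p = 0.014 and 0.0221). Leaving out Ctrl replicate 7, 8, 3 or 9 gave a count of 19, 20, 21 or 25, and leaving out Both_0.3Cyp replicate 1 or 2 gave 24 or 23. All 6 comparisons share the 12 Ctrl libraries, so their likeness is not independent.

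**Figure D3:**
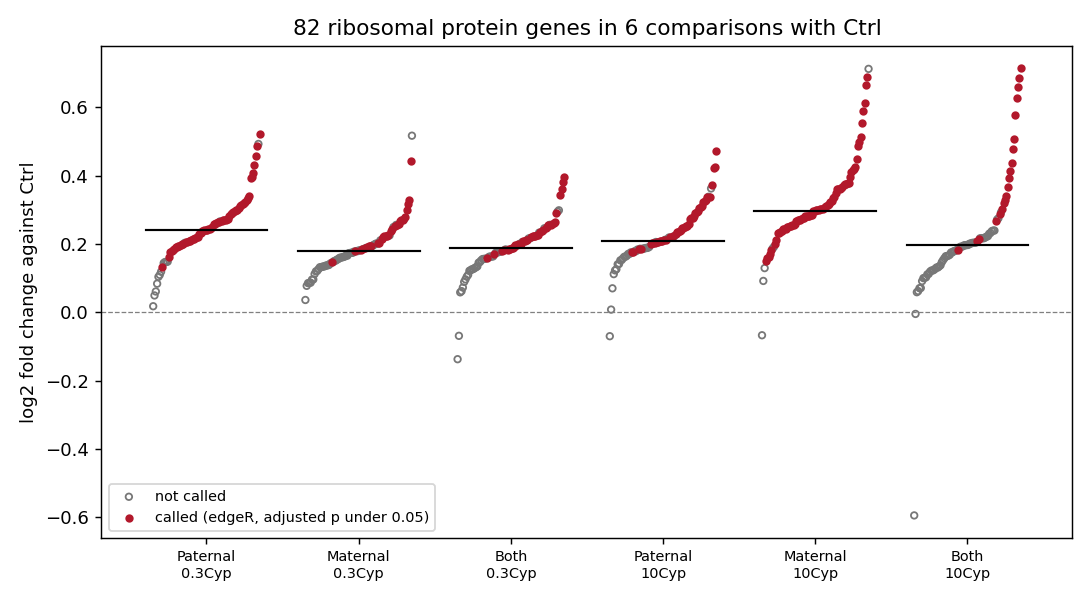
Log2 fold change (y axis) of the 82 ribosomal protein genes against Ctrl in 6 exposed groups (x axis), ordered within each group. Filled points are called at an edgeR adjusted p under 0.05, open points are not, and lines are medians. Medians run from 0.18 to 0.30, no member was called lower, and the low open point in Both_10Cyp is Rps27.

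Over the 6 comparisons, which share Ctrl, 10 members rose in each, where 1.52% of all genes tested did (218 of 14339), among them Rpl23, Rpl39, Rpl7l1, Rps21, Rps27l, Rps28 and Rps29, and 4 rose in none, namely Rpl12, Rpl14, Rps12 and Rps27. These names were picked after their values were seen. In a joint edgeR test of the 6 exposed groups 41 of 82 members were called, where 21.7% of all genes were, led by Rps29 (adjusted p = 0.000452), Rps28 (0.000687) and Rpl38 (0.00159).

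In 7 comparisons between exposed groups no member was called. Dose 10 was set against 0.3 within each parent group, and parents were compared within dose, except that Both_0.3Cyp was not tested against Maternal_0.3Cyp or Paternal_0.3Cyp. In these 7, 0 of 82 members were called by edgeR's quasi-likelihood test and 0 by DESeq2, where between 0% and 0.0628% of all genes were called by edgeR. At an unadjusted p under 0.05 the counts ran from 2 to 16 members. The share of all genes at that threshold was not computed, so these counts have no background beside them. The 16 were in Maternal_10Cyp against Maternal_0.3Cyp. There the median log2 difference of the members was 0.12 and ranged from -0.14 to 0.39 (lowest edgeR adjusted p = 0.433), with 81 of 82 above 0. The medians of the other 6 ran from -0.09 in Both_10Cyp against Maternal_10Cyp to 0.09 in Maternal_10Cyp against Paternal_10Cyp. A p that misses the threshold does not show that doses or parents act alike.

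Sex made no called difference (0 of 82 in male against female, where 0.0907% of all genes were called by edgeR, 0.0418% higher and 0.0488% lower, with 1 member at an unadjusted p under 0.05 and a median of 0.05). Between the labelled batches 32 of 82 members were lower in batch 2 and none higher, where 12.3% of all genes were lower and 12.7% higher (edgeR), with a median log2 difference of -0.10. Among those of lowest p were Rplp0 (-0.16 ± 0.04 SE, edgeR adjusted p = 0.00104) and Rpl22 (-0.14 ± 0.03, adjusted p = 0.00162).

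Each comparison with Ctrl was also taken within each batch, from a fit with a mean for each group and batch. In batch 1 the members higher numbered 2 in Maternal_10Cyp, where 0.0907% of all genes rose, and 0 in the other 5 comparisons, where at most 0.00697% did (edgeR). At an unadjusted p under 0.05 there were 70 members in Maternal_10Cyp, 50 in Paternal_10Cyp, 29 in Both_0.3Cyp, 8 in Both_10Cyp, 6 in Paternal_0.3Cyp and 3 in Maternal_0.3Cyp. Shares of all genes at that unadjusted threshold were not computed, so such counts here have no background beside them. In batch 2 the members called higher numbered 65 in Paternal_0.3Cyp (11.6% of all genes rose), 11 in Maternal_0.3Cyp (11.5%), 4 in Both_0.3Cyp (6.52%), 8 in Paternal_10Cyp (9.99%), 53 in Maternal_10Cyp (18% of all genes) and 31 in Both_10Cyp (10.9%). In Maternal_0.3Cyp, Both_0.3Cyp and Paternal_10Cyp the members' share in batch 2, 11, 4 and 8 of 82, was near that of all genes. The count of 65 rested on Paternal_0.3Cyp replicate 8: without it edgeR called 0 members in batch 2, where 0.014% of all genes rose, with 9 members at an unadjusted p under 0.05 and a median log2 fold change of 0.09 in place of 0.33. This fit was added after the data were seen. The median log2 fold changes were above 0 in both batches, from 0.13 to 0.27 in batch 1 and from 0.19 to 0.33 in batch 2. A test of the difference between batches called 0 members in each of the 6 comparisons (edgeR, lowest adjusted p = 0.267, 0 to 3 members at an unadjusted p under 0.05), where at most 0.00697% of all genes were called.

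Shorter genes had higher fold changes, among the members and among other genes. The members are short, with a median coding length of 453 nucleotides (75 to 1257) against 1398 over all protein-coding genes. Across the 82 members, which share the same libraries, Spearman's rho of log2 fold change with coding length ran from -0.73 in Paternal_0.3Cyp to -0.55 in Maternal_0.3Cyp, and across 14228 other protein-coding genes from -0.43 to -0.31. In Maternal_10Cyp the median log2 fold change was 0.55 in the 11 members under 300 nucleotides, 0.31 in the 29 from 300 to below 450, 0.30 in the 19 from 450 to below 600, 0.25 in the 20 from 600 to below 900 and 0.25 in the 3 of 900 and over. In other protein-coding genes of the same 5 classes it was 0.22, 0.19, 0.14, 0.09 and -0.06. The members' median was above that of other genes in each class, and in other genes under 300 nucleotides 50.5% rose. A part of length in the members' rise was not tested beyond the offsets given next.

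**Figure D4:**
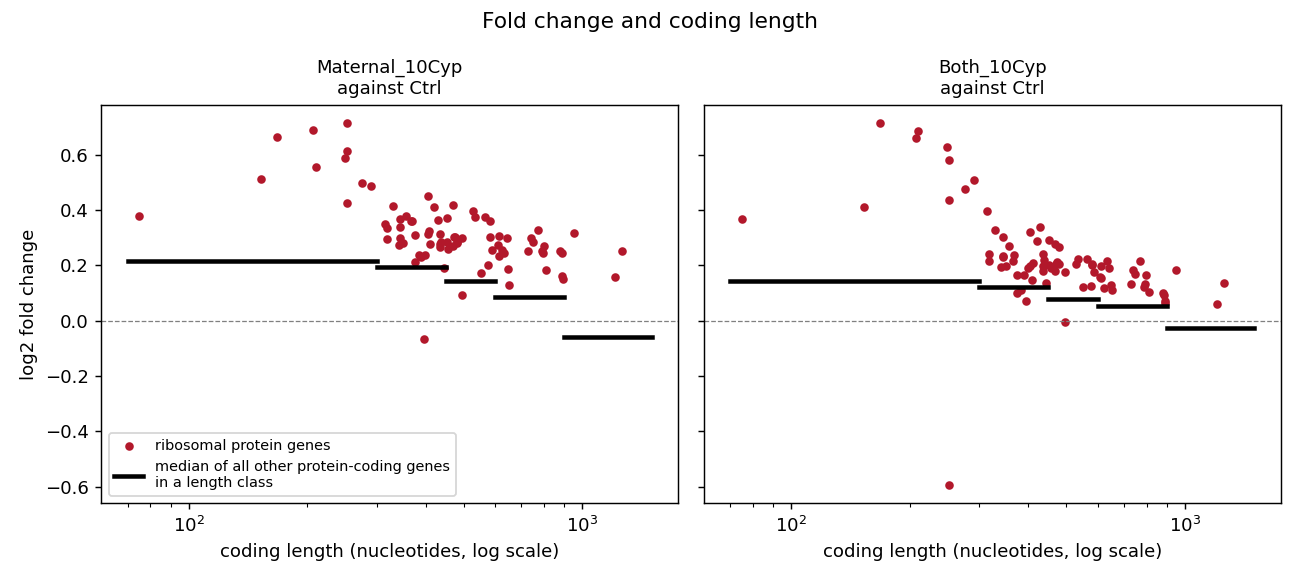
Log2 fold change (y axis) against coding length in nucleotides (x axis, log scale) in Maternal_10Cyp and Both_10Cyp against Ctrl. Points are the 82 ribosomal protein genes, and black lines are medians of all other protein-coding genes in 5 length classes. In both panels shorter genes lie higher, in the members and in the other genes. The point at -0.59 in Both_10Cyp is Rps27, which was not called. Its mean sum with Rps27rt was 177 CPM in Both_10Cyp and 131 CPM in Ctrl.

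When per-library offsets for GC content and transcript length, estimated on the other genes, were added to the fit, the fold changes were smaller. The members' median log2 fold change was then 0.07 in Paternal_0.3Cyp, 0.06 in Maternal_0.3Cyp, 0.06 in Both_0.3Cyp, 0.07 in Paternal_10Cyp, 0.09 in Maternal_10Cyp and 0.06 in Both_10Cyp. Members called in either direction then numbered 28 in Maternal_10Cyp, where 33.7% of all genes were called, 16 in Paternal_0.3Cyp (22.3%), 11 in Both_0.3Cyp (18.8%), 6 in Paternal_10Cyp (10.3%), 5 in Maternal_0.3Cyp (19.2%) and 12 in Both_10Cyp (3.59%). Counted in either direction, the members' share was near or below that of all genes in 5 comparisons. It was above that of all genes in Both_10Cyp, the group that differed in depth and in the mitochondrial ratio. Of the 28, 27 were higher and 1 lower, and of the 16, 15 were higher and 1 lower. Members called in the other comparisons were all higher. For this fit the share of all genes that rose was not computed, so the rises alone have no background beside them. Of the members with the largest rises, these were still called in Maternal_10Cyp at smaller folds: Rps29 at 0.39 (0.66 without offsets), Rps28 at 0.38 (0.69), Rps27l at 0.33 (0.61), Rps21 at 0.31 (0.59) and Rpl38 at 0.28 (0.56) (edgeR adjusted p = 0.000263, 0.000201, 0.00175, 0.00162 and 0.0065). Rps29 in Both_10Cyp was at 0.50 with these offsets (edgeR adjusted p = 6.09e-06). Rpl22 in Maternal_10Cyp turned to -0.05 (edgeR adjusted p = 0.368).

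**Figure D5:**
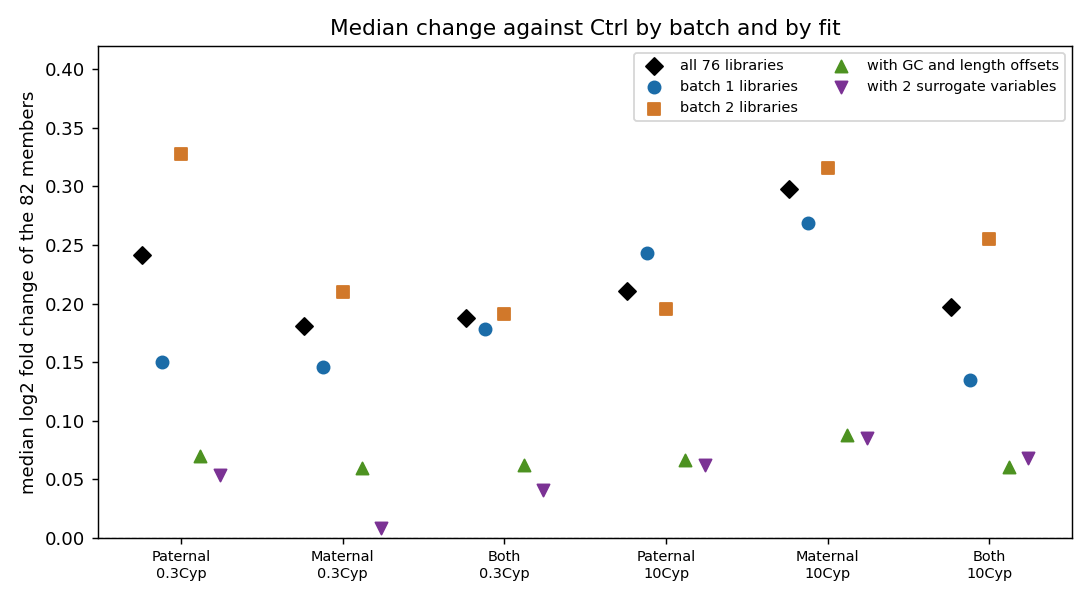
Median log2 fold change of the 82 ribosomal protein genes against Ctrl (y axis) in 6 exposed groups (x axis), from all libraries, within each batch, with GC and length offsets, and with 2 surrogate variables. Every median is above 0, the batch 2 value of 0.33 in Paternal_0.3Cyp is 0.09 without replicate 8, and the last 2 fits lie between 0.01 and 0.09 where the first lies between 0.18 and 0.30.

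Genes that build ribosomes and other TOP mRNAs were taken as lists. Of 39 ribosome biogenesis genes, 24 rose and 5 fell in Maternal_10Cyp (median log2 fold change 0.15), where 20.4% of all genes rose and 20.4% fell. Of them 17 rose and 0 fell in Paternal_0.3Cyp (15.4% of all genes rose), 9 and 1 in Maternal_0.3Cyp (10.9%), 9 and 1 in Both_0.3Cyp (10.5%) and 10 and 2 in Paternal_10Cyp (10.7%). The lowest p were those of Wdr43, a factor of early small-subunit assembly (0.30 ± 0.06 SE, edgeR adjusted p = 0.000183), and Npm1, nucleophosmin (0.35 ± 0.08, adjusted p = 0.000413). Of 31 translation factors and other TOP mRNAs, 26 rose and 1 fell in Maternal_10Cyp (median 0.20), led by Eif4a1, the helicase that unwinds mRNA leaders (0.28 ± 0.05 SE, edgeR adjusted p = 0.000136), and Eif5 (0.15 ± 0.03, adjusted p = 0.000342). In Both_10Cyp the same 2 lists had 2 of 39 and 1 of 31 genes higher, near the 2.34% of all genes. Of 17 genes of the mTOR pathway that controls TOP mRNAs, 2 rose and 5 fell in Maternal_10Cyp (median -0.07). Among them Larp1, which binds TOP mRNAs, fell by 0.22 on the log2 scale (SE 0.05, edgeR adjusted p = 0.000376), and Akt1s1, an inhibitor within mTOR complex 1, rose by 0.24 ± 0.06 (adjusted p = 0.000871).

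The mitochondrial ribosomal proteins, which translate the mitochondrial genome, and the proteasome, which degrades proteins, are set beside the members as other large complexes. In Maternal_10Cyp 66 of 78 mitochondrial ribosomal protein genes and 38 of 47 proteasome genes rose, with none lower, at medians of 0.25 and 0.25. Of all genes 20.4% rose there. In Paternal_0.3Cyp the counts were 58 and 32 (medians 0.20 and 0.18), where 15.4% of all genes rose. In Paternal_10Cyp they were 39 and 29 (medians 0.16 and 0.18), where 10.7% of all genes rose. In Maternal_0.3Cyp and Both_0.3Cyp the proteasome had 24 of 47 genes higher, and mitochondrial ribosomal proteins 26 and 28 of 78. There 10.9% and 10.5% of all genes rose. In Both_10Cyp 12 of 78 mitochondrial ribosomal protein genes (15.4%) rose, where 2.34% of all genes did. The proteasome had 1 of 47 genes (2.13%) higher, near that share. A difference between these sets and the members was not tested.

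Markers of cell types moved beside the members in Maternal_10Cyp, and their part in the result was not tested. All 4 markers of intermediate progenitors rose, among them Btg2 (0.55 ± 0.12 SE, edgeR adjusted p = 0.0005) and Insm1 (0.46 ± 0.12, adjusted p = 0.00214), and their summed level was 549 to 672 CPM against 236 to 617 in Ctrl. Of 8 radial glia markers 5 rose and 1 fell, with sums of 1524 to 1806 CPM against 1210 to 1560, and of 4 markers of dividing cells 2 rose. Of 8 neuronal markers 4 fell and 1 rose, with sums of 6522 to 7130 CPM against 6880 to 7726, and all 4 markers of oligodendrocyte precursors fell. Of 5 endothelial markers Flt1 (-0.66 ± 0.14 SE, edgeR adjusted p = 0.000278) and Kdr fell, and of 6 interneuron markers Gad1 fell and Dlx1 rose. Of all genes 40.8% were called there by edgeR, and the endothelial, interneuron and dividing-cell markers called were near that share. No marker of red blood cells, diencephalon, microglia, meninges or choroid plexus was called in that comparison. The log2 ratio of embryonic to adult globin mRNAs, which falls as an embryo grows older, was -10.51 ± 0.56 (SD, n = 8) in Maternal_10Cyp and -12.6 ± 1.65 (SD, n = 12) in Ctrl. Means of the other exposed groups also lay above that of Ctrl, from -11.64 in Both_10Cyp to -10.56 in Paternal_0.3Cyp. Embryonic globin mRNAs were at 0, 0.19 and 1.37 CPM in Ctrl (lowest, median and highest of 12), so the ratio rests on few reads there. The part of that ratio was not tested beyond a fit with it as a covariate, in which edgeR called 66 members in Maternal_10Cyp (28.1% of all genes called), 30 in Paternal_10Cyp (16% of all genes), 9 in Both_10Cyp (0.921%), 1 in Paternal_0.3Cyp (0.307%), 0 in Maternal_0.3Cyp (1.19%) and 0 in Both_0.3Cyp (0.0697%). The members' medians in that fit were 0.20 in Paternal_0.3Cyp, 0.14 in Maternal_0.3Cyp and 0.15 in Both_0.3Cyp, against 0.24, 0.18 and 0.19 without the covariate.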

How the data were processed

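For the 76 libraries the submitters' processing notes name Trim Galore (version 0.5.0), Salmon (version 1.10.1) and the mm10 build. The deposited table holds estimated counts per gene, all of them whole numbers; how transcripts were summed to genes and how values were rounded is not given in the sources used here. These counts were filtered with filterByExpr by group, scaled by TMM and tested with edgeR 4.0.16 (glmQLFit robust, glmQLFTest) in R 4.3.3, with group, batch and sex as terms and Benjamini-Hochberg adjustment over 14339 genes (484 removed); a call is an adjusted p under 0.05. CPM are from the TMM-scaled totals. Limma 3.58.1, DESeq2 1.42.0 and sva 3.50.0 gave alternatives. Each alternative changed 1 choice: scaling, low-count filter, batch term, batch, offsets, covariates, libraries left out or replicate block. Symbols, gene coordinates and coding lengths are from GENCODE M21.

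The members and lists were chosen with earlier results of these data known, so counts and medians stand beside those of all genes and no set test was made. Members named are the 4 largest called changes per comparison with Ctrl, genes set by role, paralogs, the extremes of level and SD, the 3 called members of lowest p in other tests, and up to 2 genes of lowest p per list; some of these are not reported here. The procedure was tested on simulated data for Maternal_10Cyp against Ctrl over 14339 genes: of 50 genes changed 1.15-fold, 1.25-fold, 1.5-fold and 2-fold each, 20%, 58%, 80% and 86% were recovered, and 3.94% of calls were false. The simulation drew genes independently, without batch or sex effects, and left all other genes unchanged, unlike the data. These rates therefore need not hold for the members, which move together. Library totals were 17.7 to 41.4 M counts, M standing for mega.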

Additional observations from a re-analysis of the deposited data

Results flagged for a closer look

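In the 3 groups of 8 to 10 libraries, 23 named members, the share of counts in the members and their mean level were searched for a library whose gap to its neighbour is large against the range of its group, a search that chance flags about 1 time in 20. Of 75 sets of values 10 were so marked, and all were Maternal_10Cyp replicate 1, high. Its share of counts in the members was 4.43%, with the next library of the group at 3.90%, and its mean log2 level against Ctrl was 0.59, with the next at 0.36. The 8 genes were Rplp0 at 2135 CPM, Rpsa at 1731 CPM, Rplp1 at 852 CPM, Rps6 at 791 CPM, Rplp2 at 530 CPM, Rps27a at 438 CPM, Rpl22 at 367 CPM and Rpl5 at 80.9 CPM. The genes move together, so these are not separate events. Groups of 12, among them that of Paternal_0.3Cyp replicate 8, were not searched.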

How the results depend on the processing

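Counts of members called are given in the order Paternal_0.3Cyp, Maternal_0.3Cyp, Both_0.3Cyp, Paternal_10Cyp, Maternal_10Cyp and Both_10Cyp, where the reported counts were 68, 30, 39, 48, 76 and 20. In the reported fits 27.6%, 23.7%, 22.3%, 21.5%, 40.8% and 3.91% of all genes were called, in the same order. Where no such share is given, here or in the Results, a change in the members cannot be told from one in all genes. Batch 1 alone gave 0, 0, 0, 16, 37 and 0, on fewer samples, and batch 2 alone gave 25, 3, 0, 3 and 29 in the first 5. GC and length offsets gave 16, 5, 11, 6, 28 and 12, and 2 surrogate variables 0, 0, 0, 0, 0 and 4. With the surrogate variables 0%, 0%, 0%, 0.6%, 0.133% and 0.0907% of all genes were called. The globin covariate gave 1, 0 and 0 at dose 0.3, 30 in Paternal_10Cyp and 9 in Both_10Cyp. With no batch term the count was 9 in Maternal_0.3Cyp, 26 in Paternal_10Cyp and 9 in Both_10Cyp. A fit of only the groups compared gave 0, 70, 72 and, in Both_10Cyp, 39. Without libraries high in diencephalon markers it was 13 in Maternal_0.3Cyp, 24 in Both_0.3Cyp and 14 in Paternal_10Cyp. Without libraries low in the mt-Atp6 ratio it was 19 in Both_0.3Cyp, 23 in Paternal_10Cyp and 0 in Both_10Cyp, and without those high in embryonic globins 4 in Both_10Cyp. A term for deep libraries gave 51 in Maternal_0.3Cyp, 73 in Paternal_10Cyp and 47 in Both_10Cyp. Medians moved by more than 1 SD in Paternal_0.3Cyp to 0.0698 with offsets and 0.0534 with surrogate variables, in Maternal_0.3Cyp to 0.00843 with surrogate variables, and in Maternal_10Cyp to 0.0878 and 0.0853. Rpl22 (-0.0491 with offsets) and Rpl7 (-0.0156 with surrogate variables) reversed in Maternal_10Cyp. Every median stayed above 0 in each setting. Leaving out 1 library gave 23 to 74 (within batch 2 alone, by the fit with a mean for each group and batch, 0 in place of 65 without Paternal_0.3Cyp replicate 8), 9 to 44, 19 to 54, 23 to 64, 68 to 78 and 5 to 34 members called. The replicate block gave 68, 21, 52, 25, 63 and 16, but same-numbered libraries did not deviate together (15 of 64 correlations over 0.1, median -0.02), so the numbers do not pair the samples. The cause of the other changes was not tested. DESeq2 called 68, 30, 44, 56, 76 and 27. Small rises were often missed at this depth and library number in simulated data, where 20% of the smallest changes were recovered. That simulation drew genes independently and changed few of them, so this rate need not hold for the members.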
